A study of Mus musculus with 4 samples.

Results

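The simple epithelial keratins are the 4 genes Krt8, Krt18, Krt19, and Krt7, and their mRNA and ribosome-protected fragments (RPF) were measured in mouse blastocysts. The members were chosen by gene symbol, 4 of 4 were listed in every library, and 20714 symbols were listed in both assays. There were 4 libraries, 2 replicates for each of the assays. RNA-seq read the mRNA, and Ribo-seq read the stretches of mRNA that ribosomes shield from nuclease, which reports how much of each mRNA is being translated. All embryos were wild type (labelled WT) and from a cross labelled C57BL/6N x PWK, whereas the protocol names 4-week-old C57BL/6J females and PWK/PhJ males. Per the paper, the females were injected with the gonadotropins PMSG and hCG to induce ovulation, which every library shares. They were taken at the 8-cell stage and grown to blastocysts in KSOM medium, so that every library shares a period of in vitro culture, and the zona pellucida was removed. Blastocysts were lysed whole, and fewer cells of a type and less RNA per cell cannot be told apart in such bulk samples. The labels do not say whether replicates came from separate pools of embryos, so that p-values measure only the spread between these libraries.

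Keratins are the intermediate filament proteins of epithelial cells. A filament is built from pairs of 1 type I (acidic) and 1 type II (basic) chain, and a chain without a partner is usually degraded. Krt8 (type II) and Krt18 (type I) are the pair of simple, single-layered epithelia. Krt7 (type II) and Krt19 (type I) join them in many ducts and glands and in the trophoblast. In the blastocyst, the outer layer, the trophectoderm, is the first epithelium of the embryo and is where these keratins are known to form filaments, whereas the inner cell mass holds the epiblast and primitive endoderm.

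On NCBIM37, the assembly of mm9, with GENCODE vM1, Krt8 (ENSMUSG00000049382.9) lay at chr15:101827142-101834773 on the minus strand with 9 exons and a coding sequence of 1473 bases. Krt18 (ENSMUSG00000023043.6) lay at chr15:101858647-101862457 on the plus strand with 7 exons and 1272 coding bases. It is a type I gene placed in the cluster of type II genes. The pair was separated by 23873 bases, with 0 annotated genes between them. Krt7 (ENSMUSG00000023039.9) lay at chr15:101241474-101260744 on the plus strand with 9 exons, 1374 coding bases, and a 3′ UTR of 2648 bases, whereas the 3′ UTRs of the other members had 65 to 229 bases. Krt19 (ENSMUSG00000020911.8) was the member on chromosome 11, in the type I cluster, at chr11:100002124-100009979 on the minus strand with 6 exons and 1212 coding bases. Krt19 lacks most of the tail domain of other keratins. The coding sequences were alike in GC content, at 56.1% to 58.3%. In pairwise alignment, Krt8 and Krt7 shared 71.8% of aligned coding bases and Krt18 and Krt19 shared 64.8%, against 60.8% to 61.8% for the pairs across types.

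Because RPF reports translation, the sequence around each start codon is shown, read 5′ to 3′ on the coding strand of NCBIM37, with the start codon in capitals and 10 bases before it:
Krt8: agacttcaccATGtccatca
Krt18: tccagacaagATGagcttca
Krt19: cctcctcatcATGacttcct
Krt7: tccagccgctATGtccatcc
The favoured vertebrate context has a purine at -3 and G at +4, counted from the A of the start codon as +1. A purine stood at -3 in 4 of 4 members, as in 84.2% of 18934 genes with a complete coding sequence, and G stood at +4 in 0 of 4 members, as in 49.6% of those genes. Krt7 had G at -3 and the others had A. These letters are a description of the sequence and say nothing about initiation in these embryos.

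The RNA-seq files listed 25039 symbols and the Ribo-seq files 20756, with 9012 to 9737 at or above 1 FPKM (fragments per kilobase, scaled to the mapped fragments of the library) in a library. FPKM carry no read counts, but low values fell on steps that implied 5452625 and 5179182 fragments in RNA-seq and 533931 and 484645 footprints in Ribo-seq. In RNA-seq, 62.0% and 61.7% of the tested values lay within 0.1 of a whole fragment, and in Ribo-seq 84.4% did in both libraries. A total not fitted to the values would give 20%. The totals were chosen to bring these same values near whole fragments, so 20% is not the chance level for these shares. The Spearman correlation of replicates across genes was 0.940 for mRNA and 0.898 for RPF, given as a description. The blastocyst label was checked against markers. All 6 of 6 trophectoderm markers reached a mean of 1 FPKM in both assays, as did 3 of 5 epiblast markers in mRNA and 5 in RPF, and 1 of 4 primitive endoderm markers in mRNA and 4 in RPF. Of markers of other cells, 0 of 5 fibroblast markers were above 0 in any library, and 4 of 6 oocyte markers were at 0 in all libraries. The summed level of the 4 blood markers was 1.62 and 0.729 FPKM in mRNA and 0 in RPF, and that of the oocyte markers was 1.24 and 0 FPKM in mRNA and 1.74 and 1.92 FPKM in RPF. The 6 cumulus and granulosa markers summed to 12.6 and 2.71 FPKM in mRNA and 16.3 and 26.5 FPKM in RPF, with 4 of them at 0 in all libraries. The 4 sperm markers summed to 0 and 0.515 FPKM in mRNA and to 0 and 33.7 FPKM in RPF, all of the RPF in Ribo-seq replicate 2. The part of these cells in the keratin values was not tested.

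The members fell into an abundant pair and a scarce pair in both assays. Krt18 had 1757 and 1754 FPKM of mRNA in replicates 1 and 2 and 3584 and 3210.4 FPKM of RPF. Krt8 had 1078 and 838 FPKM of mRNA and 1418 and 1382 FPKM of RPF. By mean mRNA, Krt18 ranked 47 and Krt8 ranked 117 of all symbols, and by mean RPF they ranked 86 and 249. Every library of Krt18 was above every library of Krt8 in the same assay. Krt18 mRNA was the steadiest value of the 4 members, with a fold of 1.00 between replicates, whereas Krt8 mRNA differed 1.29-fold.

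Krt7 and Krt19 were detected at far lower levels. Krt7 had 5.76 and 13.1 FPKM of mRNA and 54.8 and 62.7 FPKM of RPF. Krt19 had 2.91 and 10.5 FPKM of mRNA and 11.1 and 29.6 FPKM of RPF. In mRNA, the ranges of Krt7 and Krt19 overlapped between libraries, although Krt7 was above Krt19 within each library. The difference between these neighbours in the order was not tested. In RPF both Krt7 libraries were above both Krt19 libraries. For both genes, RNA-seq replicate 2 was the higher, 2.28-fold for Krt7 and 3.62-fold for Krt19, and Ribo-seq replicate 2 was 2.67-fold higher for Krt19. In RNA-seq replicate 2 the summed epiblast markers were at 58.1 FPKM, against 145 in replicate 1, and the trophectoderm markers were at 250 against 223. In Ribo-seq replicate 2 the epiblast sum was 851 against 725 and the trophectoderm sum was 918 against 988. Their part in these differences was not tested.

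The depth behind the scarce pair was low in Ribo-seq. With the coding length of Krt19, 1 footprint was worth 1.85 and 2.04 FPKM, and its RPF values stood for 6.00 and 14.5 footprints. Krt7 rested on 34.3 and 35.7 footprints, Krt8 on 963 and 852, and Krt18 on 2051 and 1667. In RNA-seq, Krt19 rested on 21.8 and 75.0 implied fragments and Krt7 on 122 and 265. The cause of the gap between replicates there was not tested. Footprint numbers need not be whole, since reads placed at several loci are shared out, and their precision covers counting error only. On the log2(FPKM + 1) scale the mRNA level was 10.78 ± 0.0013 (SD, n = 2) for Krt18, 9.89 ± 0.26 for Krt8, 3.29 ± 0.75 for Krt7, and 2.75 ± 1.10 for Krt19. The RPF level was 11.73 ± 0.11 for Krt18, 10.45 ± 0.026 for Krt8, 5.90 ± 0.14 for Krt7, and 4.27 ± 0.95 for Krt19.

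**Figure D1:**
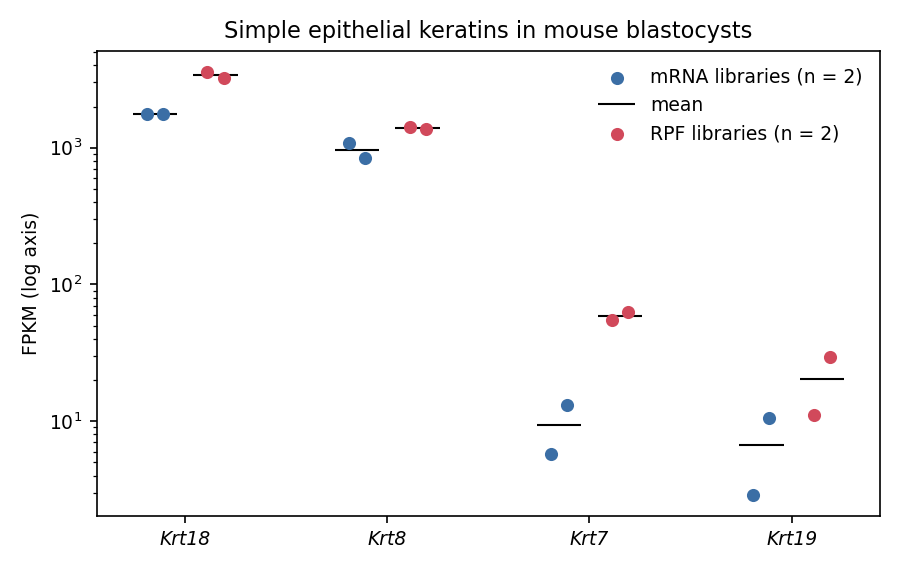
FPKM (log axis) of the 4 simple epithelial keratins in the 2 mRNA libraries (blue) and the 2 RPF libraries (red) of mouse blastocysts, with a line at the mean of each pair. Krt18 and Krt8 lie between 838 and 3584 FPKM, whereas Krt7 and Krt19 lie between 2.91 and 62.7 FPKM and their mRNA values overlap.

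The pair Krt8 and Krt18 made up almost all keratin RNA. The RNA-seq files listed 54 numbered keratins, 27 of each type, and the Ribo-seq files listed 53, with 26 of type II. The 4 members held 99.8% and 99.7% of their summed mRNA FPKM and 99.2% and 99.5% of their summed RPF FPKM. Krt18 alone held 61.7% and 66.9% of the mRNA sum and 70.2% and 68.2% of the RPF sum, and Krt8 held 37.8% and 31.9% of mRNA and 27.7% and 29.3% of RPF. Krt7 held 0.202% and 0.501% of mRNA and 1.07% and 1.33% of RPF, and its 2 RPF shares were above its 2 mRNA shares. Krt19 held 0.102% and 0.401% of mRNA and 0.218% and 0.630% of RPF, which overlapped. Together the members took 0.547% and 0.492% of the FPKM of all genes in mRNA and 0.266% and 0.239% in RPF.

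Whether the members carried more or fewer ribosomes for their mRNA than other genes was tested by setting RPF against mRNA. In plain FPKM, both RPF libraries were above both mRNA libraries for 4 of 4 members and below them for 0 of 4. Among the 8327 genes tested, both RPF libraries were above for 72.5% and below for 4.18%, and FPKM per coding sequence and per transcript lie on different scales. The median gene was 1.50 higher in RPF on the log2(FPKM + 1) scale. Each library was therefore centred on its median, and differences below are relative to that shift and understate the change of low genes. Across all genes, 6.65% were called with RPF higher and 5.31% with RPF lower, 12% in all, where a call needed a Benjamini-Hochberg adjusted p from limma under 0.05 and a difference of 1 or more on the log2 scale, either way. Of the members, 0 of 4 were called.

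In the deposited values, the 2 type II members had the lowest and the highest differences of the 4. The lowest place passes to Krt18 when RPF alone is scaled up as if shared reads had been divided, as given further on. Krt8 had a centred log2 difference of RPF minus mRNA of -0.94 (SE 0.27, 95% interval -1.69 to -0.20), below 0 at an unadjusted p of 0.0242 but with an adjusted p of 0.0925 by limma. It was called when only genes with a mean of at least 10 FPKM in both assays were fitted, with -1.03 and an adjusted p of 0.0285 by limma, a setting in which 18.5% of genes were called with RPF lower. Krt7 had 1.11 (SE 0.45, 95% interval -0.13 to 2.34) with an adjusted p of 0.165 by limma. The Krt7 difference was 0.58 without RNA-seq replicate 1 and 1.63 without RNA-seq replicate 2. Krt7 stood at the 86.6th percentile of the differences of all genes and Krt8 at the 26.9th.

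Of the type I members, Krt18 had a difference of -0.55 (SE 0.24, 95% interval -1.20 to 0.10) with an adjusted p of 0.179 by limma. With an intensity trend in the fit, the limma adjusted p was 0.0189 for Krt18 and 0.0161 for Krt8, at the same differences. Both stayed short of the difference of 1 that a call needed. In that setting Krt7 had an adjusted p of 0.122 and Krt19 one of 0.986 by limma. Krt19 had 0.02 (SE 0.77, 95% interval -2.11 to 2.15) with an adjusted p of 0.987 by limma. The interval of Krt19 was the widest of the members and held both a 4-fold lower and a 4-fold higher ratio, and its sign turned when single libraries were left out, to -0.75 without RNA-seq replicate 1 and -0.69 without Ribo-seq replicate 2. Without centring, the sign of Krt8 and Krt18 turned, to 0.56 and 0.95, so that their position below 0 is one relative to other genes. Krt7 was called with RPF higher without centring (2.61, limma adjusted p = 0.0142), where 49.4% of genes were, and without the filter on low values (2.97, limma adjusted p = 0.0197), where 25.7% were. Krt18 was also called with RPF higher without the filter (1.31, limma adjusted p = 0.00362). In simulated data with 200 changed genes among 8327, 0% of log2 changes of 2 and 93.5% of changes of 4 were called. The real fit called 996 genes, more than were changed in the simulation. The adjusted threshold depends on that number, so that these shares are not the recovery of the real fit.

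**Figure D2:**
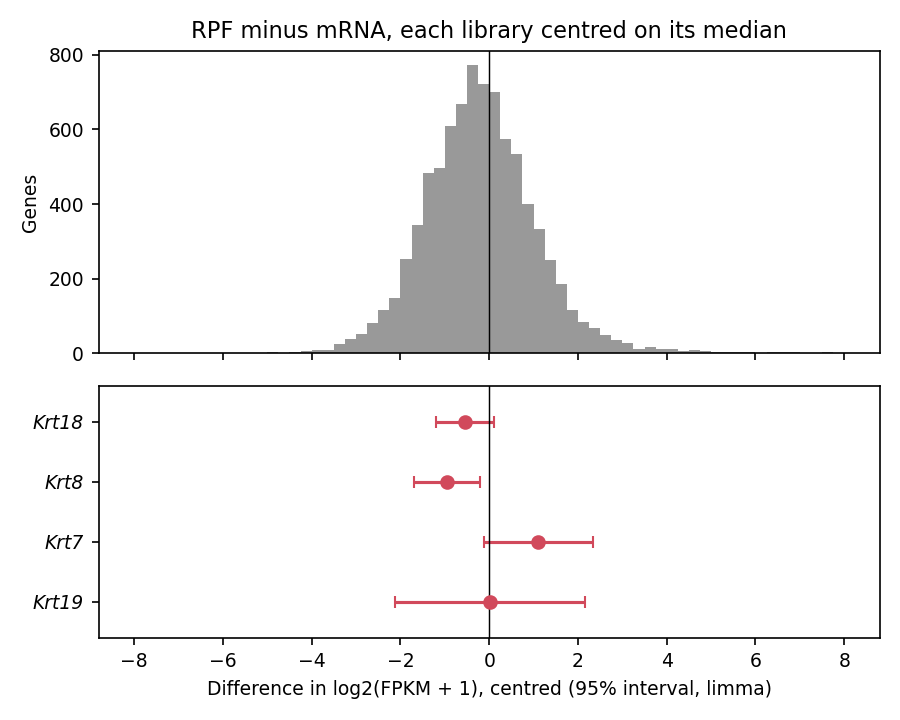
Top, histogram of the RPF minus mRNA difference in log2(FPKM + 1) of the 8327 genes tested, each library centred on its median. Bottom, the 4 members on the same axis, with 95% intervals from limma (2 libraries per assay), from -0.94 for Krt8 to 1.11 for Krt7, where the interval of Krt8 is the only one that leaves out 0.

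Because keratin chains pair across types, the balance of type II to type I was compared between the assays. The sum of Krt8 and Krt7 over the sum of Krt18 and Krt19 was 0.616 and 0.482 in mRNA and 0.410 and 0.446 in RPF, so that type I was in excess in every library and the RPF values were below both mRNA values. The log2 difference of RPF minus mRNA was -0.35 (two-sided exact permutation test, p = 0.333, the smallest that 2 against 2 libraries allow). For Krt8 over Krt18 alone, the ratio was 0.614 and 0.477 in mRNA (0.546 ± 0.096, SD, n = 2) and 0.395 and 0.430 in RPF (0.413 ± 0.025). Its log2 difference was -0.39 (exact permutation p = 0.333).

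Within each type the scarce member was set against the abundant one. Krt7 over Krt8 was 0.00534 and 0.0157 in mRNA and 0.0387 and 0.0454 in RPF, without overlap, a log2 difference of 2.19 (exact permutation p = 0.333). Krt19 over Krt18 was 0.00166 and 0.00600 in mRNA and 0.00310 and 0.00924 in RPF, which overlapped (0.76, exact permutation p = 0.667). Over all numbered keratins the balance of type II to type I was 0.547 in mRNA and 0.433 in RPF on average. After adjustment over these 5 comparisons by Benjamini-Hochberg, the exact permutation p-values were 0.417 and, for Krt19 over Krt18, 0.667, so that no difference in balance could pass in this design.

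The Krt8 values carry an uncertainty that the other members do not share to the same degree, because most of its coding sequence is found again elsewhere in the genome. Of 1446 windows of 28 bases, about the length of a footprint, 71.2% had an exact copy outside the Krt8 gene. A single locus, chr7:24142144-24143601, held 1018 of these windows (70.4%) in a run of 1458 bases. It lies within the gene Nlrp4e, in no annotated exon, and Nlrp4e itself was at 0.116 and 0 FPKM in mRNA and 0.342 and 1.13 FPKM in RPF. For Krt18, 17.3% of 1245 windows had such a copy, most of them at chr13:118246694-118247867, with no annotated gene there. Only 1.69% of Krt19 windows and 2.67% of Krt7 windows had one. Longer stretches were less affected, and 29.0% of 100-base stretches of Krt8 and 0% of those of the other members had an exact copy.

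**Figure D3:**
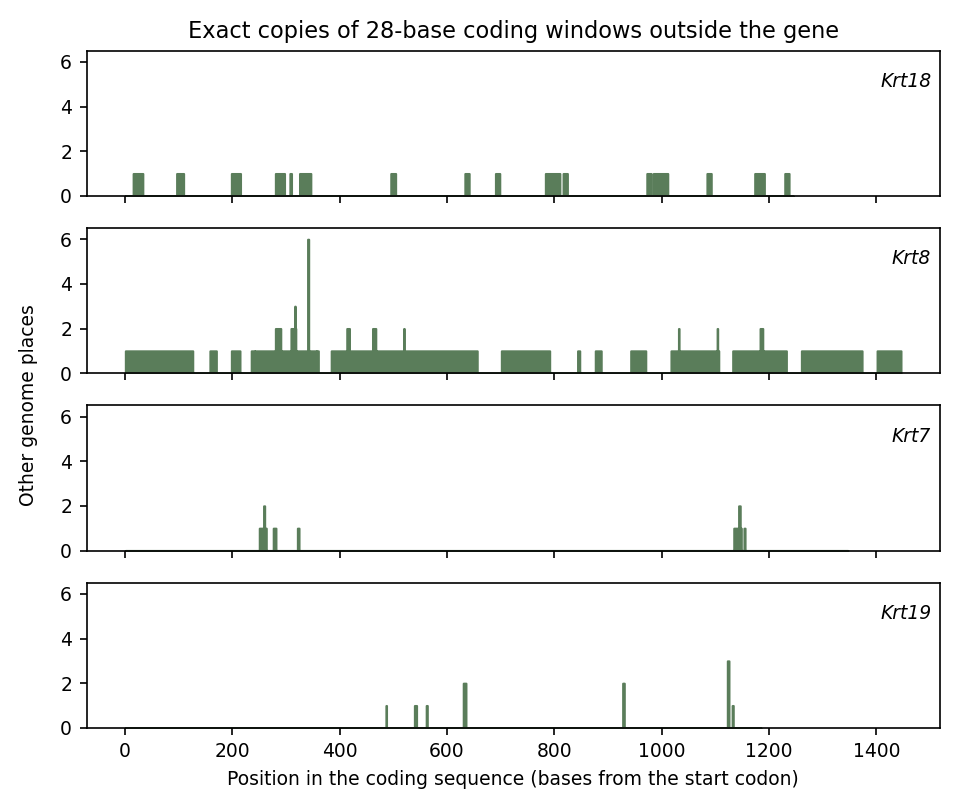
Number of other genome places (y axis) that hold an exact copy of the 28-base window starting at each coding position (x axis, bases from the start codon) for each member. Copies run along most of Krt8 (71.2% of windows, up to 6 other places), are scattered in Krt18 (17.3%), and are rare in Krt7 (2.67%) and Krt19 (1.69%).

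The part of Krt8 with the most copies is shown, with the values of other keratins that hold it. It spans coding bases 341 to 369 and stands at 7 places in the genome:
Krt8: aggtgcgcttcctggagcagcagaacaag
All of it but 2 bases lies in an exon at 6 of the places, in Krt8, Krt76, Krt81, Krt83, Krt86, and 5430421N21Rik, all on chromosome 15 (for Krt8, chr15:101832030-101832058, minus strand), and the other is chr7:24142484-24142512 in the copy above. In Ribo-seq replicate 2, Krt76, Krt81, and Krt86 each held 0.286 footprints, and in replicate 1 they held 0.999, 1.00, and 1.00. The value 0.286 equals 2 reads divided evenly over 7 places, where the 2 was picked to match it. Krt83 held 1.04 and 0.297 footprints in replicates 1 and 2, computed with a coding length of 1488 bases, which may differ from that of the authors' annotation. Krt76, Krt81, Krt83, and Krt86 were at 0 in both mRNA libraries. The gene from which their footprints came was not tested.

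What an even division over exact genome places would do to the members was computed as an alternative chosen after seeing the data. Krt8 would keep 0.639 of its footprints, Krt18 0.913, Krt7 0.986, and Krt19 0.990. Dividing the deposited RPF by these shares raises it and undoes such a division, if one was made. With RPF divided by these shares and mRNA left as deposited, Krt8 over Krt18 in RPF became 0.565 and 0.615, against 0.614 and 0.477 in mRNA, and the log2 difference turned from -0.39 to 0.12 (exact permutation p = 0.667). The balance of type II to type I in RPF became 0.578 and 0.628, with a log2 difference of 0.14 (exact permutation p = 0.667). The centred RPF minus mRNA difference of Krt8 became -0.30 and that of Krt18 became -0.42, so that Krt18 was then the lowest of the members. The direction of the balance between the assays thus turned when RPF alone was scaled up, as if its shared reads had been divided. Krt8 mRNA may share reads too, since 29.0% of its 100-base coding stretches had an exact copy, against 0% for Krt18. What scaling both assays would give was not tested, nor whether or how much of the deposited Krt8 value was lost to such a division. The shares count genome places, and 70.4% of Krt8 windows had a copy at the chr7 locus, in no annotated exon. Reads were mapped to a transcriptome, and whether any were placed at that locus was not tested.

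**Figure D4:**
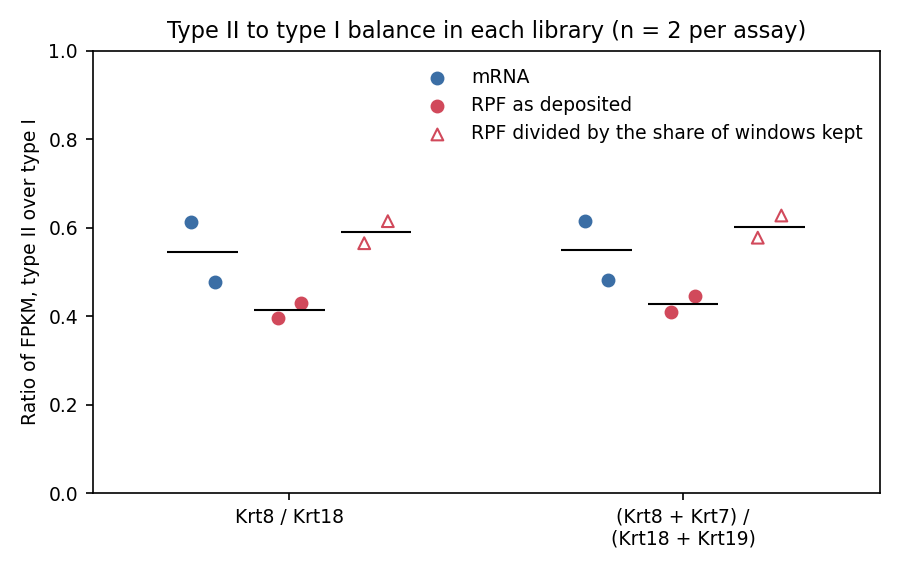
Ratio of type II to type I FPKM per library (y axis from 0), for Krt8 over Krt18 and for both members of each type, in mRNA (blue), RPF as deposited (red circles), and RPF divided by the share of windows kept under even division of shared reads (open triangles), with a line at each mean (n = 2). The deposited RPF ratios, 0.395 to 0.446, lie below the mRNA ratios, 0.477 to 0.616, and the divided ones, 0.565 to 0.628, do not.

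Beside the 4 members, the other 50 numbered keratins were low. A total of 25 were at 0 in all libraries, and 6 reached a mean of 1 FPKM in either assay. Of the numbered keratins, 5 could be tested for RPF against mRNA, the members and Krt25, and 0 were called. Krt25, a type I keratin of the hair follicle, had 0.612 and 3.12 FPKM of mRNA and 2.46 and 1.81 FPKM of RPF. Krt10, the type I keratin of differentiated epidermis, had 3.38 and 2.55 FPKM of mRNA and 0 in both RPF libraries, and 1 footprint would have been worth 1.26 and 1.39 FPKM. Krt27, also of the hair follicle, had 0.798 and 0.702 FPKM of mRNA and 4.90 and 0 FPKM of RPF.

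The reverse, RPF with no mRNA, was seen in 9 of the other keratins, which were above 0 in both RPF libraries and at 0 in both mRNA libraries, as were 101 of all 20714 symbols. Krt76, Krt81, Krt83, and Krt86, which hold the 29-base Krt8 stretch, were among them and held at most 1.04 footprints in a library. Krt5, the type II keratin of basal cells in stratified epithelia, had 9.50 and 8.47 FPKM of RPF, or 7.83 and 6.33 footprints. Krt75, a type II keratin of the hair follicle, had 5.14 and 5.67 FPKM, or 4.00 footprints in each library. Krt90 had 2.64 and 2.18 FPKM. Among the markers of stratified epithelium, Krt1 was at 0 in all libraries, and the 4 markers with Krt5 included summed to 3.38 and 2.55 FPKM in mRNA and 11.3 and 8.47 FPKM in RPF.

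Parts of Krt5 and Krt75 resemble Krt8 and Krt7, and up to 2 mismatches were allowed in a read. Of the 28-base windows of Krt5, 11.6% lay within 2 mismatches of a member, 94 windows for Krt8 and 116 for Krt7, and of those of Krt75, 3.74% did. Exact matches were fewer, with 2 windows of Krt5 for Krt8 and 0 for Krt7, and 8 windows of Krt75 for Krt8 and 0 for Krt7. Whether a read with an exact match in a member was also placed at a window with mismatches was not tested. Examples of such windows follow, chosen as those with the fewest mismatches, with a base that differs in capitals and the coding position of the first base in each gene:
Krt5 (751): aagtatgaggatgagatcaacaagcgta
Krt8 (550): aagtatgaggatgagatcaacaagcgta
Krt5 (488): gGgagcagatcaagaccctcaacaacaa
Krt7 (257): gCgagcagatcaagaccctcaacaacaa
Krt75 (469): ctgaacaacaagttcgcctccttcattg
Krt8 (310): ctgaacaacaagttcgcctccttcattg
The windows of Krt5 and Krt8 and those of Krt75 and Krt8 are identical. The part of shared reads in the RPF of Krt5 and Krt75 was not tested. Among the members themselves, 124 windows of Krt8 lay within 2 mismatches of Krt7, 3 of them exact, against 963 and 852 footprints of Krt8 and 34.3 and 35.7 of Krt7. The embryos carried PWK alleles, and the effect of their differences from the mm9 reference on the match of each read was not tested.

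The other intermediate filament genes were lower than Krt8 and Krt18. The list held 15 genes, which form the filaments of muscle, nerve, lens, and mesenchyme and the nuclear lamina. Of these, 4 were tested, 1 had RPF higher, against 6.65% of all genes tested, and 0 had RPF lower. The median centred difference was 1.13, against -0.24 over all genes tested. The lamin gene Lmnb1, a component of the nuclear lamina, had 6.73 and 7.18 FPKM of mRNA and 285 and 238 FPKM of RPF. Its centred log2 difference was 3.54 (SE 0.24), with an adjusted p of 0.0164 by limma. This call was lost without RNA-seq replicate 1 (adjusted p = 0.310), without RNA-seq replicate 2 (0.329), and with the replicate block (0.101), all by limma. Lmna had 60.4 and 36.7 FPKM of mRNA and 254 and 187 FPKM of RPF (0.69, limma adjusted p = 0.253). Lmnb2 had 0.870 and 3.12 FPKM of mRNA and 28.2 and 13.4 FPKM of RPF (1.38, limma adjusted p = 0.167).

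Genes whose products anchor keratin filaments to junctions were mostly low. Of 12 attachment genes, 4 were tested, 0 were called, and the median difference was -0.50, against -0.24 over all genes tested. Jup (plakoglobin), a desmosome and adherens junction protein, had 44.6 and 49.2 FPKM of mRNA and 92.7 and 78.9 FPKM of RPF (-0.65, limma adjusted p = 0.148). Dsp (desmoplakin), which ties the filaments to desmosomes, had 5.56 and 6.65 FPKM of mRNA and 13.6 and 10.5 FPKM of RPF (-0.63, limma adjusted p = 0.171). Pkp2 (plakophilin) had 7.16 and 15.1 FPKM of mRNA and 24.8 and 23.6 FPKM of RPF (-0.37, limma adjusted p = 0.551). Itga6, an integrin subunit of hemidesmosomes, was the other gene tested, named after its values were seen, and had 3.47 and 3.12 FPKM of mRNA and 26.7 and 25.5 FPKM of RPF (1.16, limma adjusted p = 0.0556). Of the keratin-associated genes, Fam83h, Tchp, and Fbf1, 0 of 3 had a mean of at least 1 FPKM in both assays.

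The 14-3-3 genes, whose proteins bind phosphorylated Krt18 among many other partners, were abundant. All 7 of 7 were tested, 1 had RPF higher, 0 had RPF lower, and the median difference was 0.54, against -0.24 over all genes tested. Among all genes tested, 6.65% were called with RPF higher. Ywhab had 62.8 and 66.2 FPKM of mRNA and 486 and 431 FPKM of RPF, and its log2 difference of 1.31 (SE 0.24) had an adjusted p of 0.0472 by limma. The call of Ywhab was lost in 5 of 12 alternatives, with limma adjusted p-values from 0.00362 to 0.330, namely a pseudocount of 0.1, quantile normalization, the replicate block, and leaving out either RNA-seq library. Sfn (14-3-3 sigma), the family member typical of epithelia, had 154 and 159 FPKM of mRNA and 674 and 622 FPKM of RPF (0.54, limma adjusted p = 0.183). Ywhaz had 654 and 540.1 FPKM of mRNA and 1581 and 1317 FPKM of RPF (-0.22, limma adjusted p = 0.570). Ywhae had 222 and 233 FPKM of mRNA and 1348 and 1565 FPKM of RPF (1.17, limma adjusted p = 0.0608). Ywhag, named after its values were seen, had the largest difference of the 7 (1.60, limma adjusted p = 0.0606) and was not called.

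For each member the nearest genes were sought among 20713 symbols by the Euclidean distance of log2(FPKM + 1) over the 4 libraries, which describes a like level in each library. The genes nearest to Krt8 were Rpl3 (distance 0.285), Elob (0.367), and Btf3 (0.370), and those nearest to Krt18 were Rps27l (0.273), Rps10 (0.403), and Rps15 (0.407). Rpl3, Rps10, and Rps15 encode ribosomal proteins. The genes nearest to Krt7 were Cpne3 (0.428), Med20 (0.434), and Bex1 (0.480), and those nearest to Krt19 were Lrrc42 (0.559), Scrn3 (0.594), and Noc3l (0.596). Lrrc42 was also higher in the second library of each assay, with 3.98 and 9.01 FPKM of mRNA and 14.1 and 25.2 FPKM of RPF.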

How the data were processed

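RNA-seq and Ribo-seq of blastocysts were analysed, with 2 libraries per assay. Groups and replicate numbers came from the sample titles. The authors deposited FPKM per gene and library. Per their methods and processing notes, RNA-seq reads were trimmed with Trim Galore (0.4.2), Ribo-seq reads were trimmed with cutadapt (1.14) and rRNA reads discarded with Bowtie2 (2.2.2), reads were mapped to the mm9 transcriptome with STAR (2.5.3a; up to 20 places, and for Ribo-seq up to 2 mismatches and at least 16 matched bases), and FPKM were computed with Cufflinks (2.2.1). RNA-seq values are per length of transcript, whereas Ribo-seq values are per length of coding sequence.

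Where a symbol was repeated, the highest value was used. RPF minus mRNA was fitted with limma (3.58.1, R 4.3.3) on log2(FPKM + 1), with each library centred on its median, for the 8327 genes with a mean of at least 1 FPKM in both assays. p-values were adjusted by Benjamini-Hochberg over all of them, and a call needed an adjusted p below 0.05 with a difference of 1 or more on the log2 scale. Ratios were compared by two-sided exact permutation tests. The members and gene lists were chosen with earlier results of these data known.

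The text names the members, the other numbered keratins with a mean of at least 1 FPKM in either assay, in each list of other filament genes and keratin partners the genes called and the 3 highest by mean mRNA, and the 3 genes nearest to each member. Itga6, Ywhag, keratins and other genes that share the 29-base Krt8 stretch, and the host gene of the Krt8 copy were named after their values were seen. Depth was estimated from the steps of low values with the default fragment length of Cufflinks (mean 200, SD 80 bases). Windows were matched to both strands of NCBIM37 and to GENCODE vM1 coding sequences, whereas the reads were mapped to a transcriptome, so that window counts are of the genome and not of the mapping. The other steps used Python 3.11.15, numpy 2.4.6, scipy 1.17.1, pandas 2.3.3, numba 0.67.0, Biopython 1.88, and matplotlib 3.10.9. The limma fit, the depth estimate, and the window counts were tested on simulated data. Of 200 changed genes among 8327, limma called 0% at a log2 change of 2, 93.5% at 4, and 97.5% at 6. With 996 genes called in the data, these shares are not the recovery of the real fit.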

Additional observations from a re-analysis of the deposited data

How the results depend on the processing

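The limits are 2 libraries per assay, few footprints for Krt19, and reads of Krt8 that may be shared, depending on where reads were mapped. Without a filter on low values, the centred RPF minus mRNA difference turned to 0.92 for Krt8 and 1.31 for Krt18 and rose to 2.97 for Krt7, and Krt18 and Krt7 passed with RPF higher. That filter also changes the median used for centring. Without centring the values were 0.56, 0.95, and 2.61, and Krt7 passed. With genes of at least 10 FPKM, Krt8 passed at -1.03 (limma adjusted p = 0.0285), and Krt7 and Krt19 could not be fitted. Scaling up RPF alone as if shared reads had been evenly divided, with mRNA left as deposited, was an alternative added after seeing the data. The RPF ratio of Krt8 to Krt18 was then 0.590 and that of type II to type I was 0.603, and their log2 differences turned to 0.12 and 0.14. Leaving out 1 library gave -1.13 to -0.76 for Krt8, -0.59 to -0.51 for Krt18, 0.58 to 1.63 for Krt7, and -0.75 to 0.79 for Krt19, where the cause was not tested.

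The number of genes with RPF higher, 554, became 308 with a pseudocount of 0.1, 5330 without the filter, 4113 without centring, 861 with an intensity trend, and 0 to 1268 with 1 library left out. The number with RPF lower, 442, became 154, 158, 65, 716, and 0 to 1987, and 670 at 10 FPKM or more. RPF higher was 55.6% of calls, against 66.7% with a pseudocount of 0.1, 97.1% without the filter, 98.4% without centring, and 40.5% at 10 FPKM or more. With the replicate block both counts were 0, as without RNA-seq replicate 1 or 2, where limma gave 2594, 1293, and 1250 genes at an unadjusted p under 0.05, against 3026. Replicate numbers were not taken to pair the libraries. The labels do not say that they mark shared embryos, and the deviations of replicate 1 in the 2 assays had a correlation of 0.0099 across genes, which does not settle it. With the block, as in the main fit, 0 of 4 members were called, which says nothing about pairing, since the block called 0 genes. Of 46 alternative fits of the members' RPF minus mRNA differences, 37 kept their direction and side of the threshold, 6 turned in direction, and 3 passed in the same direction.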
